A study of Mus musculus with 6 samples.

Results

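The genes described here are fibroblast growth factor 2, 3 receptors of the FGF family and 6 genes that FGF and ERK signalling is known to induce, in Sertoli cells with and without PA1. They were chosen by symbol: *Fgf2*, *Fgfr1*, *Fgfr2*, *Fgfr3*, *Spry1*, *Spry2*, *Spry4*, *Dusp6*, *Etv4* and *Etv5*, 10 of the 28262 genes in the count table. RNA-seq was made from untreated Sertoli cells of C57BL/6 mice at 20 days of age, with 3 libraries from *Pa1F/F* mice (genotype label PA1flox/flox), the control, and 3 from *Amh-pa1-/-* mice (genotype label PA1-/-), in which a Cre driven by the *Amh* promoter, active in Sertoli cells, deletes the floxed alleles. Cells of both genotypes were cultured in a medium that held insulin, epidermal growth factor and transferrin, and were washed to remove germ cells that had not attached. Epidermal growth factor is itself known to act through ERK. The study's methods speak of biological replicates, but whether each came from its own animals is not given in the sources used here, so p-values measure the spread between these libraries. The reads of *Pa1* were not analysed here, and the genotypes rest on the labels. Libraries of 1 genotype were unequally spaced. *Pa1F/F* replicates 1 and 3 and *Amh-pa1-/-* replicates 1 and 2 were close to each other over all genes, where the chi-square of their counts over its degrees of freedom was 2.24 and 1.68, against 18.7 to 30.9 for the other pairs, so *Pa1F/F* replicate 2 and *Amh-pa1-/-* replicate 3 stood apart. Whether the libraries of a close pair came from 1 preparation of cells is not given in the sources used here. If they did, n would be 2 in each genotype rather than 3 and the p-values from 6 libraries would be too small, so each close pair was also summed to 1 library. Results that rest on these libraries are given with and without them.

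FGF ligands bind receptor tyrosine kinases at the cell surface with the help of heparan sulfate. The receptors recruit adaptors that switch on RAS and then a cascade of kinases that ends in MEK and ERK. ERK signalling raises the transcription of its own inhibitors, among them the sprouty proteins and the phosphatase DUSP6, and of the ETS factors ETV4 and ETV5, so that the RNA of these genes is widely used as a readout of the pathway. In the testis, FGF2 and GDNF support the self-renewal of spermatogonial stem cells, and *Etv5* acts both in Sertoli cells and in spermatogonia.

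Of the 10 genes, 4 changed between the genotypes at an adjusted p-value under 0.05, from edgeR's quasi-likelihood test and a Benjamini-Hochberg correction over 14919 tested genes. *Fgf2* and *Fgfr1* fell in *Amh-pa1-/-* cells, and *Fgfr3* and *Spry2* rose. That is 40% of the genes, as compared with 35.3% of all tested genes (17.1% lower and 18.2% higher), so the share lay near the background. *Fgfr3* was the only one of the 10 that also met the fold threshold of the study, a log2 fold change of 1 or more in either direction. Both thresholds were passed by 12.0% of all tested genes, 6.56% lower and 5.44% higher. The median log2 fold change of the 10 genes was -0.05 and that of all tested genes was 0.00. All 10 passed the filter on low counts. Values in what follows are normalized counts, the reads of a gene after scaling each library to the mean effective size, and are listed for replicates 1, 2 and 3 in that order. Of the 6 sprouty, *Dusp6* and *Etv* genes, *Spry2* alone passed.

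The stretches of 250 bases before the RefSeq start sites (GRCm38.p6) of 3 feedback genes are shown because these genes, read as outputs of the same pathway, had different layouts over the libraries. Capitals mark a GC box (GGGCGG, searched on both strands), a known binding site of SP1-type factors.
*Spry1*, chr3:37639697-37639946, plus strand: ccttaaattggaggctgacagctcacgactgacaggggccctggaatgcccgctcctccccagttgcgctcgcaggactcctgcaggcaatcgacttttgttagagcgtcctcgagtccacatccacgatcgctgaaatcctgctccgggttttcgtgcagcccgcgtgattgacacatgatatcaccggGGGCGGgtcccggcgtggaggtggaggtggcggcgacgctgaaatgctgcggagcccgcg
*Spry2*, chr14:105896820-105897069, minus strand: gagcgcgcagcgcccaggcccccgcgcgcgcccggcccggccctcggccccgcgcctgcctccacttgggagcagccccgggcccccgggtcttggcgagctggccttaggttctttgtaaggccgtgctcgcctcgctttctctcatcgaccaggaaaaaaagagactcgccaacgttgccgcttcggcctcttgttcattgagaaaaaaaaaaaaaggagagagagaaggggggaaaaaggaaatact
*Dusp6*, chr10:99262981-99263230, plus strand: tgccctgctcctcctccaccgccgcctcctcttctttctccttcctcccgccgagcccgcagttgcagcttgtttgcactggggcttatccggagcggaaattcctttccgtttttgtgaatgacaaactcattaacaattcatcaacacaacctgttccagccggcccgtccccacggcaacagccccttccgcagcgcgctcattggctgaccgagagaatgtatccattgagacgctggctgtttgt
The *Spry1* stretch held 1 GC box, from 60 to 55 bases before the start, and those of *Spry2* and *Dusp6* held 0. A GC box was found in 32.7% of the 32851 stretches of this length in the RefSeq table. The ETS core CCGGAA (in 12% of all stretches), the AP-1 site TGANTCA (in 6.75%) and the cyclic AMP response element TGACGTCA (in 1.55%) were searched on both strands as well. RefSeq promoters were matched for 7 of the 10 genes, with 9 start sites, and the letters of these 3 motifs were in none of the 9 stretches, which holds for these windows alone.

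The level of each gene per kilobase of exon, scaled to the same library size, gives the order of abundance in control cells. *Dusp6* stood first, with a mean level of 90.2 and a range from 80.2 to 95.8 over the 3 *Pa1F/F* libraries. *Fgf2* followed with 19.7, *Fgfr1* with 16.4, *Etv5* with 13.8 and *Etv4* with 12.4. These neighbours overlapped in their libraries, since *Fgf2* ranged from 16 to 21.6, *Fgfr1* from 15.8 to 17.1, *Etv5* from 11.6 to 16 and *Etv4* from 10.5 to 13.5. *Spry4*, whose highest library (10.6) overlapped with *Etv4*, had a level of 8.70, *Spry2* of 4.41 and *Spry1* of 2.1. *Spry4* and *Spry2* were separated by the lowest *Spry4* library (5.57) and the highest *Spry2* library (5.33) only narrowly. *Fgfr2* (0.285) and *Fgfr3* (0.159) were at the end of the order, far under *Fgfr1* and without overlap between them. In *Amh-pa1-/-* cells *Dusp6* was again first, with a mean level of 119 and a range from 73.2 to 144, while *Fgfr1* with 9.10 stood behind *Etv4* (13.7) and *Etv5* (11.6). Its range from 8.89 to 9.29 lay under that of *Etv5* (9.87 to 12.7) and within that of *Etv4* (8.57 to 16.7).

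**Figure D1:**
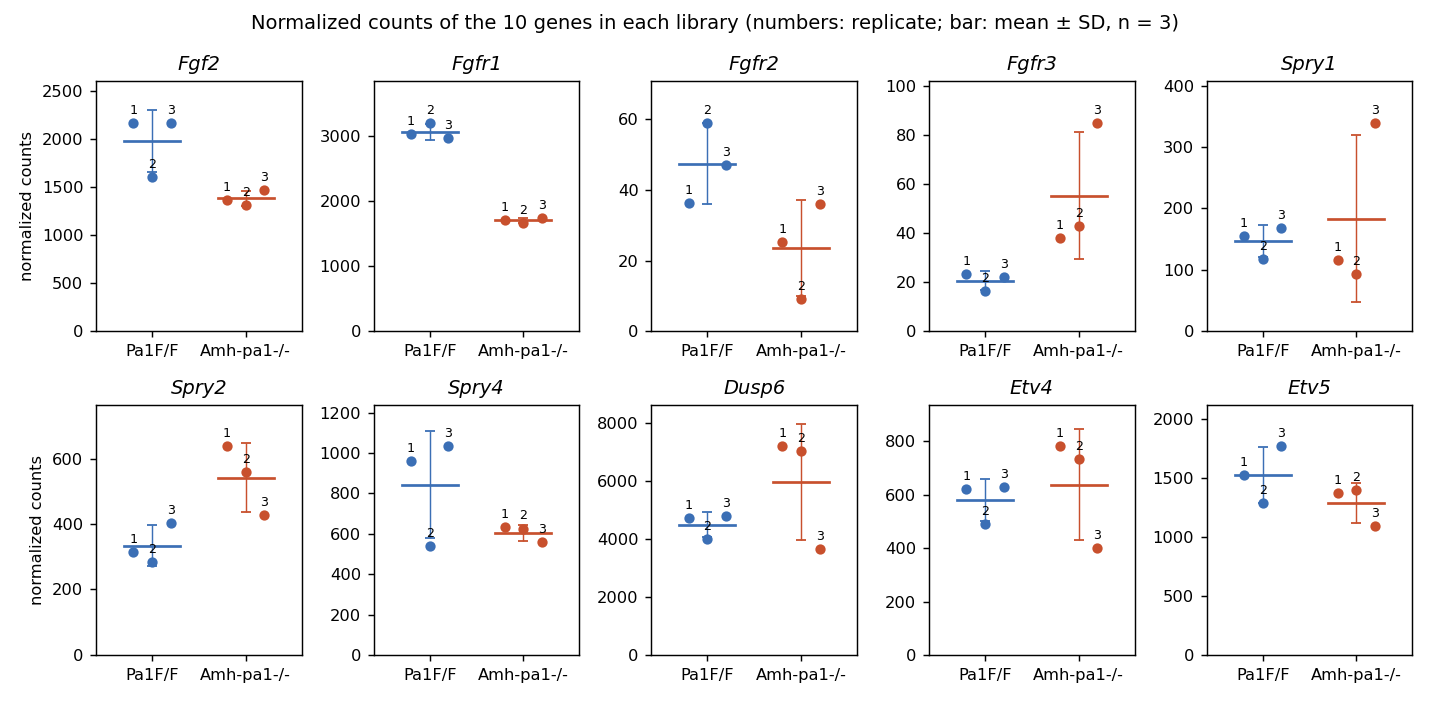
Normalized counts (y axis, from 0) of each of the 10 genes in the 3 *Pa1F/F* (blue) and 3 *Amh-pa1-/-* (orange) libraries, numbered by replicate, with the mean as a bar and the SD as whiskers. *Fgfr1* has tight and separate groups, from 2973 to 3211 and from 1671 to 1744, while *Amh-pa1-/-* replicate 3 stands away from the other replicates for *Spry1*, *Dusp6* and *Etv4*.

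*Fgf2* (ENSMUSG00000037225, chromosome 3 of GRCm38 from 37348346 to 37410108), the ligand, had 2165, 1610.2 and 2171 normalized counts in *Pa1F/F* cells. In *Amh-pa1-/-* cells it had 1364, 1315 and 1471. Every *Amh-pa1-/-* library lay below every *Pa1F/F* library, with *Pa1F/F* replicate 2 nearest to them. The mean fell from 1982 ± 322 to 1383 ± 79.9 (SD, n = 3 each), or -0.52 ± 0.12 (standard error) on the log2 scale (edgeR, adjusted p = 0.0170). The call was lost when *Pa1F/F* replicate 1 or 3 or *Amh-pa1-/-* replicate 1 or 2 was left out (edgeR, adjusted p from 0.0589 to 0.0708), with the direction kept. *Fgf2* overlaps 3 genes on the other strand, among them *Nudt6* with at most 50 counts in a library, and reads there cannot be told apart without strand, whose setting in the counting is not given in the sources used here. *Fgfr1*, *Fgfr3*, *Spry1* and *Spry4* each overlap 1 gene on the other strand, and none of these reached 100 counts in a library. All of these overlaps are of whole gene spans, introns included.

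*Fgfr1* (ENSMUSG00000031565, chromosome 8 from 25513654 to 25575718) encodes the receptor with the most reads of the 3 here. It had 3037, 3211 and 2973 normalized counts in *Pa1F/F* cells against 1710.2, 1671 and 1744 in *Amh-pa1-/-* cells. The spread within each genotype was small beside the gap between them, and *Amh-pa1-/-* replicate 3, which stood apart for other genes, was at 1.03 times the mean of the other two. The mean fell from 3074 ± 123 to 1708 ± 36.9 (SD, n = 3 each), which is 0.556 times the control by the fit. On the log2 scale the change was -0.85 ± 0.05 (standard error, edgeR, adjusted p = 0.000142), and it stayed between -0.87 and -0.82 with any library left out.

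*Fgfr2* (ENSMUSG00000030849) had 36.2, 59.1 and 47.2 normalized counts in *Pa1F/F* cells against 25.4, 9.01 and 36.1 in *Amh-pa1-/-* cells. The groups touched without overlapping, since the highest *Amh-pa1-/-* library lay just under the lowest *Pa1F/F* library. The log2 fold change of -1.0 did not pass the test (95% interval from -2.06 to 0.07, edgeR, adjusted p = 0.128), and it passed without *Amh-pa1-/-* replicate 3, with -1.43 (edgeR, adjusted p = 0.0348). Its counts may be uncertain for a further reason. The table places *Fgfr2* on chromosome 7 from 130162451 to 133123350, a span of 2960900 bases, whereas RefSeq ends the gene at 130266808, a span of 104358 bases. The longer span overlaps 54 other genes of the table, 27 of them on the same strand, and 18 of the 54 reached 100 counts in a library. These overlaps are of whole gene spans, introns included. Overlap of exons was not computed, and an effect on the counts was not tested.

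*Fgfr3* (ENSMUSG00000054252, chromosome 5 from 33721674 to 33737068) was the rarest receptor in control cells and rose in knockout cells. It had 23.6, 16.5 and 22 normalized counts in *Pa1F/F* cells, against 38.1, 42.8 and 85.2 in *Amh-pa1-/-* cells. All *Amh-pa1-/-* libraries lay above all *Pa1F/F* libraries, and *Amh-pa1-/-* replicate 3 stood 2.11-fold above the mean of the other two. The mean went from 20.7 ± 3.74 to 55.3 ± 25.9 (SD, n = 3 each), or 1.42 ± 0.37 (standard error) on the log2 scale (edgeR, adjusted p = 0.0247). Leaving out any 1 of the *Pa1F/F* libraries lost the call (edgeR, adjusted p from 0.0662 to 0.0757). Without *Amh-pa1-/-* replicate 3 the log2 fold change was 0.96, still past the adjusted p-value but under the fold threshold.

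The sprouty genes encode inhibitors that act between the receptor and the kinase cascade. *Spry2* (ENSMUSG00000022114, chromosome 14 from 105891949 to 105896819) had 314, 284 and 404 normalized counts in *Pa1F/F* cells. In *Amh-pa1-/-* cells it had 637, 559.9 and 429. The groups did not overlap, and *Amh-pa1-/-* replicate 3 came close to *Pa1F/F* replicate 3. The mean rose from 334 ± 62.4 to 542 ± 105 (SD, n = 3 each), or 0.70 ± 0.19 (standard error) on the log2 scale (edgeR, adjusted p = 0.0263). The call was lost without *Pa1F/F* replicate 1 or 2 or *Amh-pa1-/-* replicate 1 or 2 (edgeR, adjusted p from 0.0706 to 0.0924).

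*Spry4* (ENSMUSG00000024427, chromosome 18 from 38586268 to 38601268) had 959.6, 540.3 and 1033 normalized counts in *Pa1F/F* cells against 632, 626 and 559 in *Amh-pa1-/-* cells. *Pa1F/F* replicate 2 lay below all *Amh-pa1-/-* libraries, at 0.542 times the mean of the other *Pa1F/F* replicates, a gap that 4.91% of all tested genes reached. The log2 fold change was -0.48 (95% interval from -1.02 to 0.07, edgeR, adjusted p = 0.149). Without *Pa1F/F* replicate 2 it was -0.72 (edgeR, adjusted p = 0.00322).

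*Spry1* (ENSMUSG00000037211, chromosome 3 from 37639947 to 37644598) lies close to *Fgf2* on the same chromosome. It had 155, 118 and 169 normalized counts in *Pa1F/F* cells against 116, 93.5 and 339.7 in *Amh-pa1-/-* cells. *Amh-pa1-/-* replicate 3 was 3.24-fold above the mean of the other two, and these lay under every *Pa1F/F* library. Only 2.6% of all tested genes had a gap as large between that library and its group. The log2 fold change of 0.32 (95% interval from -0.82 to 1.45, edgeR, adjusted p = 0.642) turned to -0.48 without *Amh-pa1-/-* replicate 3 (edgeR, adjusted p = 0.0822).

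*Dusp6* (ENSMUSG00000019960, chromosome 10 from 99263231 to 99267489) encodes a phosphatase that removes the activating phosphates from ERK. It had 4717, 3997 and 4779 normalized counts in *Pa1F/F* cells. In *Amh-pa1-/-* replicates 1 and 2 it had 7191 and 7019.5, above every *Pa1F/F* library, whereas *Amh-pa1-/-* replicate 3 with 3648 lay below them all. The log2 fold change was 0.40 (95% interval from -0.18 to 0.99, edgeR, adjusted p = 0.246), and 0.66 without *Amh-pa1-/-* replicate 3 (edgeR, adjusted p = 0.000721).

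*Etv4* (ENSMUSG00000017724, chromosome 11 from 101769742 to 101785371) had the same layout. It had 619.8, 489 and 629 normalized counts in *Pa1F/F* cells. In *Amh-pa1-/-* replicates 1 and 2 it had 781 and 733, and in replicate 3 it had 399.8. The log2 fold change was 0.14 (95% interval from -0.45 to 0.73, edgeR, adjusted p = 0.699). It was 0.39 without *Amh-pa1-/-* replicate 3 (edgeR, adjusted p = 0.0347) and -0.03 without *Amh-pa1-/-* replicate 1 (edgeR, adjusted p = 0.949).

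*Etv5* (ENSMUSG00000013089, chromosome 16 from 22381309 to 22439719) is the paralog of *Etv4*. It had 1522, 1285 and 1764 normalized counts in *Pa1F/F* cells against 1368.5, 1399 and 1089 in *Amh-pa1-/-* cells. The groups overlapped, and the log2 fold change was -0.25 (95% interval from -0.58 to 0.09, edgeR, adjusted p = 0.217). It did not pass with any 1 library left out, and its log2 fold change then lay between -0.36 and -0.13.

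**Figure D2:**
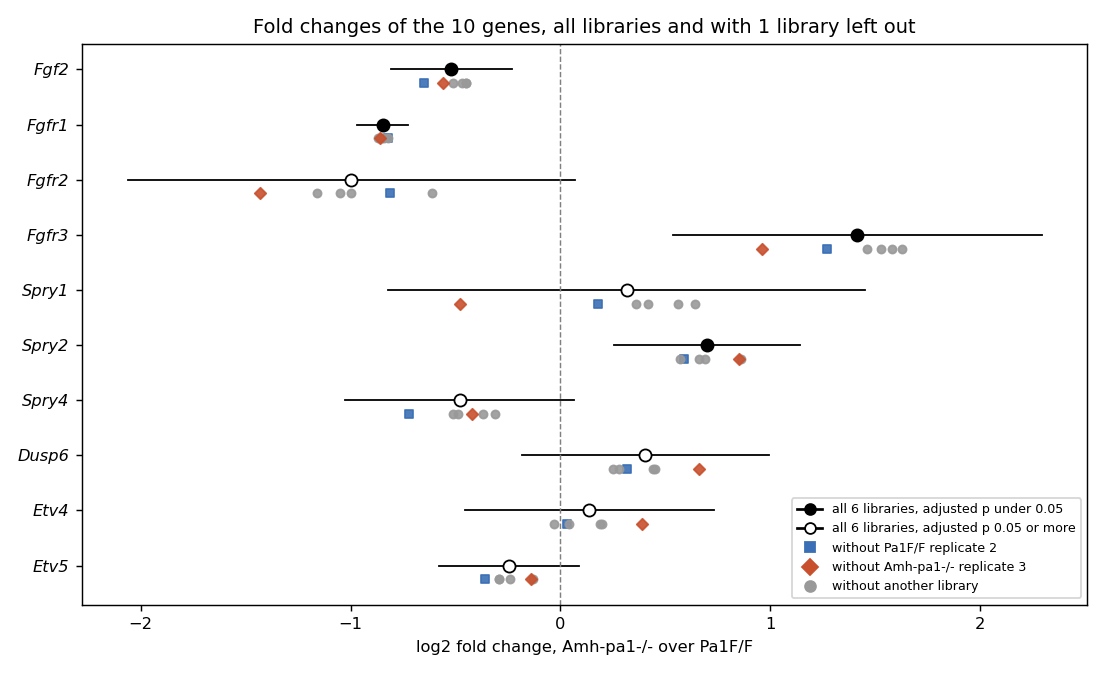
Log2 fold change (x axis) of each gene from all 6 libraries, with its 95% interval as a line, filled where the adjusted p-value was under 0.05, and below it the values with 1 library left out (blue square without *Pa1F/F* replicate 2, orange diamond without *Amh-pa1-/-* replicate 3, grey points without another library). The values of *Fgfr1* coincide, from -0.87 to -0.82, while *Spry1* runs from -0.48 to 0.64 and crosses 0.

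An exact permutation test, two-sided, was also run on the normalized counts of each gene, and it cannot give less than 0.1 for 3 against 3 libraries. The genotypes did not overlap for *Fgf2*, *Fgfr1*, *Fgfr2*, *Fgfr3* and *Spry2*, with p = 0.1 each in the exact test. These are 5 of the 10 genes (50%), as compared with 52.4% of all tested genes (26.1% lower and 26.3% higher). The exact test gave p = 0.3 for *Etv5*, 0.4 for *Spry4* and *Dusp6*, 0.6 for *Etv4* and 1 for *Spry1*.

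*Amh-pa1-/-* replicate 3 was the lowest of its group for *Spry2*, *Spry4*, *Dusp6*, *Etv4* and *Etv5* and the highest for *Fgf2*, *Fgfr1*, *Fgfr2*, *Fgfr3* and *Spry1*, so that it stood at an end of its group for 10 of 10 genes, as for 84.4% of all tested genes. *Pa1F/F* replicate 2 was the lowest of its group for 8 of the 10 genes, the exceptions being *Fgfr1* and *Fgfr2*, as compared with 38.2% of all tested genes. *Pa1F/F* replicate 3 was the highest for 7 of the 10, as compared with 30.8%. For *Dusp6* and *Etv4*, *Amh-pa1-/-* replicate 3 was at 0.513 and 0.528 times the mean of the other two, and 9.03% and 9.7% of all tested genes had gaps as large. Gaps as large as those of *Spry2*, *Spry4* and *Etv5* in that library were common, in 25.2%, 59.7% and 35.5% of all tested genes. For *Pa1F/F* replicate 2, the gap of *Spry4* was the least common of the 6 feedback genes, and those of the other 5 were reached by 15.2% (*Spry1*) to 30.9% (*Dusp6*) of all tested genes. Over the close pairs alone, a setting added after seeing the data, all 10 genes passed the test, with 6 lower (*Fgf2*, *Fgfr1*, *Fgfr2*, *Spry1*, *Spry4* and *Etv5*) and 4 higher (*Fgfr3*, *Spry2*, *Dusp6* and *Etv4*), as did 8266 of the 14960 genes tested there. That fit takes the small spread of the close pairs as the spread between replicates. With each close pair summed to 1 library, *Fgfr1* alone of the 10 passed (edgeR, adjusted p = 0.0224), and 1382 genes passed in all.

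**Figure D3:**
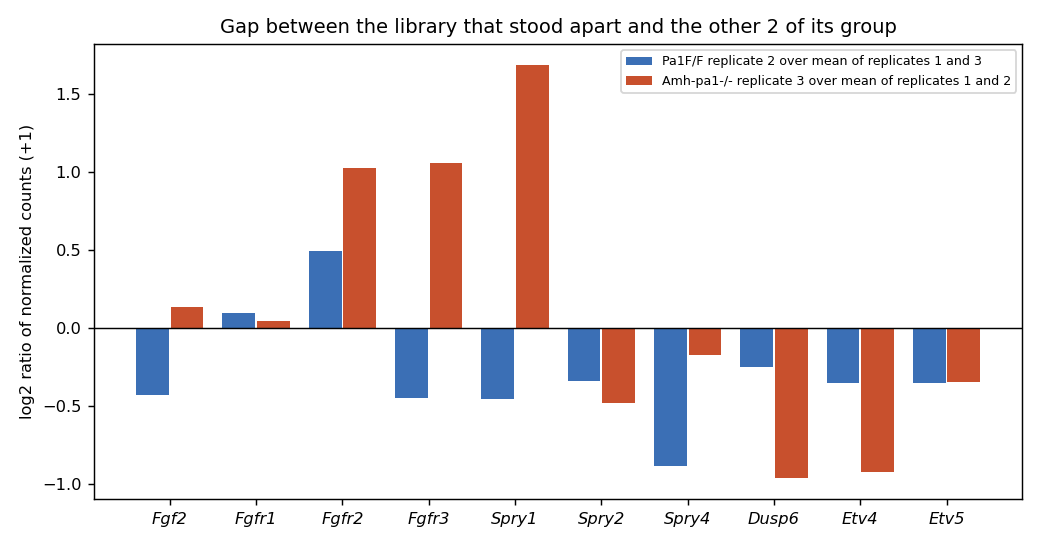
Log2 ratio of normalized counts (y axis, 1 added to each value) of *Pa1F/F* replicate 2 over the mean of replicates 1 and 3 (blue) and of *Amh-pa1-/-* replicate 3 over the mean of replicates 1 and 2 (orange) for each gene. The orange bar is highest for *Spry1* at 1.69 and lowest for *Dusp6* at -0.96, and the blue bar is lowest for *Spry4* at -0.88.

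Total counts ranged from 13203757 to 16231443 per library. Defining Sertoli markers were abundant, with mean normalized counts in *Pa1F/F* and *Amh-pa1-/-* cells of 4654 and 4287 for *Sox9*, 5083 and 5547 for *Wt1*, 4980.4 and 4966 for *Dhh* and 16169 and 12578 for *Cldn11*. *Rhox5* (9.47 and 7.16) and *Trf* (2.88 and 4.06) were low in both. The summed level of 12 Sertoli markers was 240000 to 244000 in *Pa1F/F* and 151000 to 191000 in *Amh-pa1-/-* libraries. Most of this sum was *Clu*, with means of 193368 and 119830, and 2 of the 10 tested fell (*Clu* and *Aard*). *Amh-pa1-/-* replicate 3 also stood apart in some markers of several cell types. The smooth muscle gene *Des* had 139, 93.0 and 113 normalized counts in *Pa1F/F* cells against 43.9, 46.2 and 485 in *Amh-pa1-/-* cells, so that *Amh-pa1-/-* replicates 1 and 2 lay below every *Pa1F/F* library. *Cnn1*, also of smooth muscle, had 53.5, 27.1 and 65.0 against 34.2, 24.8 and 421. The Sertoli marker *Amh* had 186, 254 and 179 against 43.9, 48.4 and 365, and the endothelial marker *Kdr* had 62.5, 99.7 and 69.2 against 80.0, 74.4 and 485. These genes were chosen after their values were seen. Other markers of these lists differed in the log2 ratio of *Amh-pa1-/-* replicate 3 over the mean of replicates 1 and 2. The ratio was 2.64 for *Kdr*, against -0.51 for *Pecam1* and 0.24 for *Cdh5*. It was 2.95 for *Amh*, against -0.61 for *Sox9*, -0.04 for *Dhh* and 0.56 for *Fshr*. Among smooth muscle genes it was 3.4 for *Des*, 3.07 for *Myh11* and 0.35 for *Acta2*. The summed level of 8 peritubular myoid markers was 3340 to 4340 in *Pa1F/F* and 12400 to 19400 in *Amh-pa1-/-* libraries, mostly *Acta2*. Spermatogonia, in which *Fgfr3*, *Dusp6* and *Etv5* are also known to be expressed, left few reads. Of 12 spermatogonial markers 5 (*Zbtb16*, *Sall4*, *Stra8*, *Lin28a* and *Sohlh1*) had at most 3 counts in every library, and 4 of the 5 tested fell, such as *Gfra1* with a log2 fold change of -1.57 (edgeR, adjusted p = 0.00726). Their summed level, mostly *Uchl1*, was 2880 to 3290 in *Pa1F/F* and 1550 to 2950 in *Amh-pa1-/-* libraries. Summed levels were 12300 to 13700 against 2610 to 4900 for 8 Leydig cell, 1790 to 1960 against 1100 to 1360 for 9 macrophage, 1710 to 1790 against 943 to 1490 for 7 endothelial and 17800 to 23600 against 12900 to 23700 for 6 fibroblast markers, in *Pa1F/F* against *Amh-pa1-/-* libraries. Those of 9 spermatocyte markers were 33.5 to 47.4 against 30.3 to 97.2, and those of 7 spermatid markers 104 to 114 against 94.6 to 103. Most of the macrophage sum was *Mrc1*, with means of 984 and 1109, while *Lyz2* went from 456 to 47.4 and *Adgre1* from 33.4 to 3.15. The endothelial sum was mostly *Cdh5* (1585 and 869), the fibroblast sum mostly *Col1a1* and the spermatid sum mostly *Spaca1*. Of the markers tested, 3 of 4 for Leydig cells, 5 of 6 for macrophages, 2 of 4 for endothelium and 2 of 5 for fibroblasts fell, while 1 of 4 for endothelium and 1 of 7 for myoid cells (*Acta2*) rose, and 0 of 2 for spermatocytes and 0 of 1 for spermatids passed. *Cyp17a1*, *Insl3*, *Emcn*, *Spo11*, *Ldhc*, *Piwil1* and 6 of the spermatid markers had at most 3 counts in every library. Each gene of the count table had at least 1 count in total, so a marker at 0 in every library could not appear. *Pgk2*, *Prm2*, *Tnp1* and *Tie1*, also on the marker lists, were not in the count table and are left out of the sums. The part of these cells in the values of the 10 genes was not tested, and in bulk RNA fewer cells of a type and less RNA per cell cannot be told apart.

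The rest of the pathway was followed over 90 other genes, of which 71 were tested. At an adjusted p-value under 0.05, 16 fell and 13 rose in *Amh-pa1-/-* cells, which is 40.8% of those tested, as compared with 35.3% of all tested genes. Their median log2 fold change was -0.05. The genes named in what follows were taken by size of change within each group of the list. Each log2 fold change is that of *Amh-pa1-/-* over *Pa1F/F* cells, and the adjusted p-values are from the same edgeR test.

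Among ligands, *Fgf18*, a secreted FGF, was the single gene of the 3 tested that changed. It had 103, 106 and 85.0 normalized counts in *Pa1F/F* cells against 304.6, 355 and 308 in *Amh-pa1-/-* cells. The groups lay far apart, by 1.72 ± 0.13 (standard error) on the log2 scale (edgeR, adjusted p = 0.000270), so that this ligand rose while *Fgf2* fell. Of the FGF homologous factors, which stay inside the cell and are known as partners of ion channels, *Fgf13* and *Fgf11* were the ones tested. Both fell, by 1.78 and 1.48 on the log2 scale (edgeR, adjusted p = 0.000657 and 0.000234).

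Of the co-receptors, 2 of the 10 tested passed both thresholds, and of the carriers and modulators at the cell surface, many of which bind or shape heparan sulfate, 4 of 10 did. Over the list 11 of 71 did, as compared with 12.0% of all tested genes. *Gpc1*, a glypican, fell by 1.24 and *Sdc1*, a syndecan, by 0.86 on the log2 scale, whereas *Sdc2* rose by 0.21 (edgeR, adjusted p = 0.000513, 0.0221 and 0.0196). The group of other receptors and co-receptors had 2 genes lower and 2 higher of the 10 tested. *Sulf2*, an extracellular enzyme that takes 6-O sulfates off heparan sulfate, had 4249, 3595 and 4272 normalized counts in *Pa1F/F* cells against 1335, 1289.9 and 929.8 in *Amh-pa1-/-* cells, a log2 fold change of -1.77 (edgeR, adjusted p = 0.000413). Its paralog *Sulf1*, with the same activity, moved the other way. *Sulf1* had 2637, 2475 and 2649 normalized counts in *Pa1F/F* cells against 6018, 6004.5 and 3833 in *Amh-pa1-/-* cells, a log2 fold change of 1.03 (edgeR, adjusted p = 0.00464). *Hs6st1*, which adds 6-O sulfates, fell by 1.2 on the log2 scale (edgeR, adjusted p = 0.000306). *Flrt2*, a membrane protein of a family that binds FGF receptors, rose by 1.51 (edgeR, adjusted p = 6.99e-05). Of the 10 ligand carriers and modulators tested, 4 were lower and 3 were higher.

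The adaptors and the kinase cascade changed by less. *Gab1* rose by 0.57 and *Grb2* by 0.21, and *Sos2*, a RAS activator, fell by 0.41 and *Plcg1* by 0.34 on the log2 scale (edgeR, adjusted p = 0.00256, 0.0320, 0.00303 and 0.0200). In the cascade, *Nras* rose by 0.55, while *Map2k1* and *Map2k2*, which encode the MEK kinases, fell by 0.51 and 0.23 (edgeR, adjusted p = 0.00203, 0.00577 and 0.0480). No adaptor or cascade gene that passed had an absolute log2 fold change of 1 or more.

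Among 13 other negative regulators tested, *Nf1* and *Spred1*, which restrain RAS, fell by 0.45 and 0.38 on the log2 scale, and *Rasa2* rose by 0.38 (edgeR, adjusted p = 0.0111, 0.0401 and 0.00542). The other 10 did not pass. Of 12 other genes listed as ERK-responsive, *Ccnd1*, which encodes the cell cycle protein cyclin D1, had 812, 573 and 875 normalized counts in *Pa1F/F* cells against 230.4, 231 and 125 in *Amh-pa1-/-* cells. It fell by 1.95 on the log2 scale (edgeR, adjusted p = 0.00237). *Elk1*, an ETS factor, fell by 0.56, and the ephrin receptor gene *Epha4* rose by 1.69 (edgeR, adjusted p = 0.00340 and 0.00583). Whether the RNA of the genes on this list, *Elk1* among them, follows ERK in these cells was not tested. The calls of *Sdc1*, *Sdc2*, *Plcg1*, *Grb2*, *Map2k2* and *Spred1* were lost with at least 1 library left out (edgeR, adjusted p from 0.0530 to 0.171), and the calls of the other 17 genes named from the list were kept with each library left out. Of these 17, *Sos2*, *Sulf1*, *Epha4*, *Elk1*, *Nf1*, *Rasa2* and *Map2k1* lost the call with each close pair of libraries summed to 1 (edgeR, adjusted p from 0.0511 to 0.0938).

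*Amh-pa1-/-* replicate 3 stood apart for *Dusp4* and *Egr1* as well, chosen after their values were seen. That library lay at an end of its group for 84.4% of all tested genes, and other listed genes were mixed. Its log2 ratio over the mean of replicates 1 and 2 was -1.05 for *Dusp4* and 1.36 for *Egr1*. The ratio was 0.05 for *Dusp5* and -0.25 for *Myc*, but -0.93 for *Epha2* and 0.78 for *Etv1*. *Dusp4*, which encodes a nuclear phosphatase of the same family as *Dusp6*, had 3199.7, 3066.5 and 1512 normalized counts in *Amh-pa1-/-* cells, as compared with 3696, 2624 and 3272 in *Pa1F/F* cells. Its log2 fold change was -0.30 (edgeR, adjusted p = 0.439), and -0.03 without that library (edgeR, adjusted p = 0.886). *Egr1*, an early target of ERK, went the other way in that library, with 2679.5, 2438 and 2516 normalized counts in *Pa1F/F* cells against 3494.5, 3442 and 8916 in *Amh-pa1-/-* cells. Its log2 fold change of 1.05 (edgeR, adjusted p = 0.0644) was 0.45 without that library (edgeR, adjusted p = 0.000517).

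**Figure D4:**
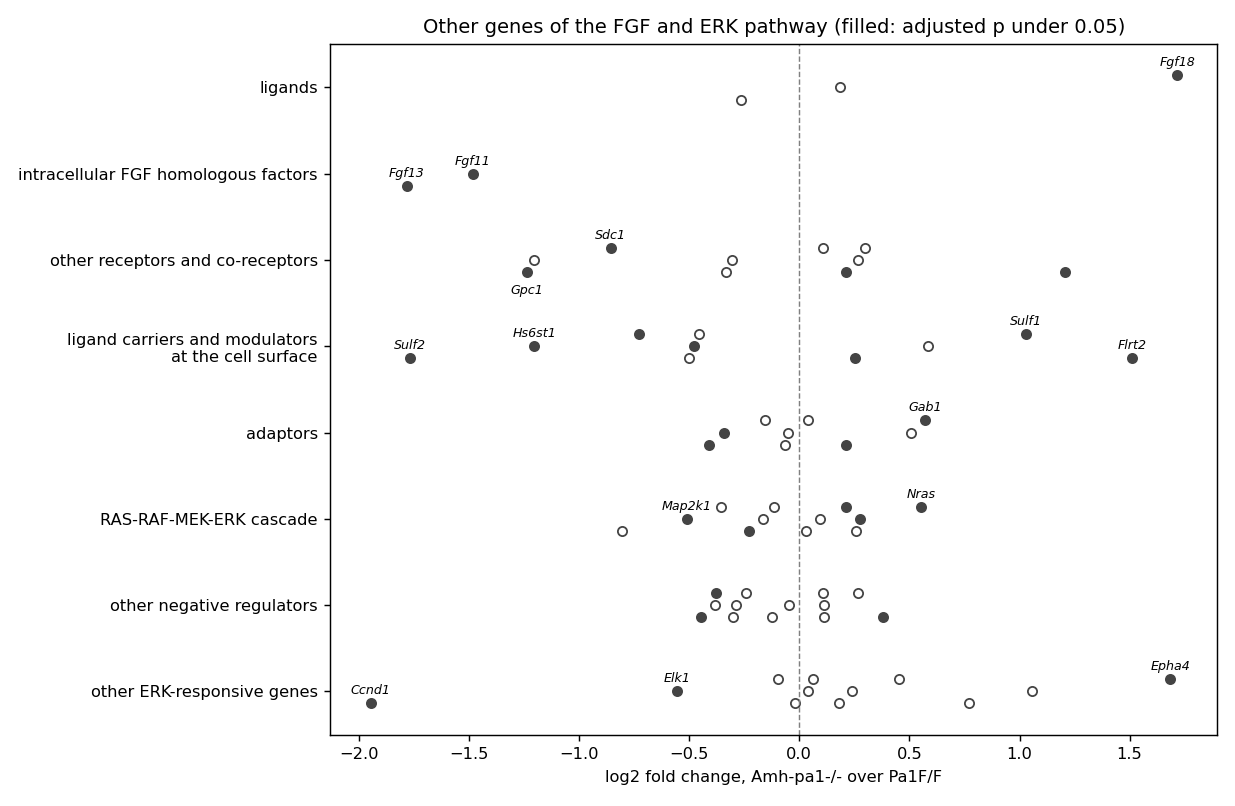
Log2 fold change (x axis) of the 71 tested genes of the wider pathway, in rows by function and spread vertically for legibility, filled where the adjusted p-value was under 0.05, with names on the genes described in the text that changed by more than 0.5. Changes of at least 1 lie among ligands, homologous factors, co-receptors, surface modulators and ERK-responsive genes, such as *Fgf18* at 1.72 and *Ccnd1* at -1.95, while the adaptors and cascade lie between -0.80 and 0.57.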

How the data were processed

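Total RNA of Sertoli cells was sequenced on an Illumina HiSeq instrument after library preparation with a NEBNext Ultra kit. Per the labels, HISAT2 2.1.0, HTSeq 0.6.0 and GRCm38 were used, and the authors aligned with the first and counted reads per gene with the second. The deposited counts are not normalized. The strand setting is not given in the sources used here. The table also holds mean, fold change and p-value columns of the authors' own comparison, which were not used.

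The 6 libraries were grouped by their labels. In R 4.3.3 with edgeR 4.0.16, genes were filtered with filterByExpr (minimum count 10, minimum total count 15), scaled by TMM and compared between genotypes by the quasi-likelihood F-test, with genotype as the single term. P-values were adjusted over 14919 genes by Benjamini-Hochberg. TMM centres most genes on no change. A gene passed at an adjusted p-value under 0.05, and differential expression also needed an absolute log2 fold change of 1, the thresholds of the study, whose methods name DEGseq. Standard errors are the absolute log2 fold change over the square root of F, and intervals are at 95%. Levels per kilobase used exon lengths of the GENCODE vM39 annotation, matched by gene identifier, and no coordinates of that build. Promoters came from RefSeq. Counting error sets a floor of 3 counts in a library, and without molecular identifiers the floor covers counting error only. The intervals come from the edgeR fit and cover the spread between these libraries. The steps were tested on simulated counts. Figures were drawn with Python 3.11.15 and matplotlib 3.10.9.

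The genes and the lists were chosen with earlier results of these data known. The pathway list holds secreted ligands, homologous factors, co-receptors, surface modulators, adaptors, cascade, negative regulators and ERK-responsive genes. Of each group, up to 4 genes with an adjusted p-value under 0.05 and a mean of at least 50 normalized counts were named by size of change, apart from some results that are not reported here. Marker lists were of Sertoli, spermatogonial, spermatocyte, spermatid, peritubular myoid, Leydig, macrophage, endothelial and interstitial fibroblast cells. Alternatives were scaling by DESeq2 1.42.0 size factors or by library size alone, the Wald test of DESeq2, limma-voom (limma 3.58.1), no filter, a stricter filter of 10 counts in each library, a block for the replicate number, each library left out, close replicate pairs summed, no fold threshold and, added after seeing the data, close pairs alone.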

Additional observations from a re-analysis of the deposited data

How the results depend on the processing

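Other scaling, other tests and other filters changed no call of the 10 genes, except that *Fgfr2* was not tested with at least 10 counts in every library. The libraries mattered more. With 1 library left out, log2 fold changes ranged from -0.65 to -0.45 for *Fgf2*, -0.87 to -0.82 for *Fgfr1*, -1.43 to -0.61 for *Fgfr2*, 0.96 to 1.63 for *Fgfr3*, -0.48 to 0.64 for *Spry1*, 0.57 to 0.86 for *Spry2*, -0.72 to -0.31 for *Spry4*, 0.25 to 0.66 for *Dusp6* and -0.03 to 0.39 for *Etv4*. *Spry1* turned to -0.48 without *Amh-pa1-/-* replicate 3 and *Etv4* to -0.03 without *Amh-pa1-/-* replicate 1, and the cause was not tested. With the close pairs summed, which leaves fewer libraries, *Fgf2* (-0.41), *Fgfr3* (1.65) and *Spry2* (0.71) no longer passed. With the close pairs alone, *Fgfr2* (-1.23), *Spry4* (-0.66), *Dusp6* (0.58), *Etv4* (0.28) and *Etv5* (-0.25) passed and *Spry1* was -0.62.

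Counts of genes lower and higher past both thresholds were 979 and 812, and 455 and 428 with the close pairs summed, 2548 and 2718 without the fold threshold. Of the 10 genes, 0 were lower and 1 higher past both thresholds. Each number lay between 0 and 1 with 1 library left out, no gene was higher with the close pairs summed (0), 1 was lower and 0 higher with the close pairs alone, and 2 were lower and 2 higher without the fold threshold. Of the other pathway genes, 16 were lower and 13 higher. With 1 library left out the lower ones ranged from 11 (without *Pa1F/F* replicate 1 or *Amh-pa1-/-* replicate 1) to 18 (without *Amh-pa1-/-* replicate 3), and the higher ones from 8 (without *Pa1F/F* replicate 3) to 20 (without *Amh-pa1-/-* replicate 3). With the close pairs summed 7 were lower and 4 higher, with the fold threshold 6 and 5, and with the close pairs alone 24 and 22.

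Libraries with the same number did not vary together in each pair, with correlations of their deviations of 0.108, -0.164 and -0.179 for replicates 1, 2 and 3, so the numbers were not taken to pair the samples. With the replicate number as a block, *Spry2* kept its log2 fold change of 0.70 without passing (edgeR, adjusted p = 0.0735), 3802 genes passed in place of 5266, and no other of the 10 calls changed. Depth limits *Fgfr2* and *Fgfr3*, which had between 8 and 85 counts in a library.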
